A study of Mus musculus with 8 samples.

Results

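The epithelium of the intestine was compared with that of the hindstomach in mouse embryos at E16.5, a late fetal stage. Hindstomach is the glandular part of the rodent stomach, and intestine here means the proximal small intestine. The comparison rests on 4 of the 8 libraries of the series, 2 labelled intestine and 2 labelled hindstomach, chosen by their labels and not by any measured value. Both tissues came from ShhCre;R26YFP/+ embryos, in which the Cre recombinase of the Shh locus switches on a fluorescent reporter, and they received no treatment. The fluorescent cells were not stated to have been sorted for these RNA samples: epithelium was shaken off the opened organ in 5 mM EDTA for the intestine and in 10 mM EDTA for the hindstomach, then frozen, and poly(A) RNA was sequenced. Tissue and EDTA concentration therefore cannot be told apart. Libraries of a tissue carry replicate numbers, but no label says that their embryos differed, and the p-values then describe no more than the scatter of these libraries, which may be technical. The other 4 libraries (colon and forestomach, 2 each) serve only for levels set beside the comparison.

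Stomach and small intestine both arise from the endodermal gut tube, and their epithelia diverge under different transcription factors. The homeodomain proteins Cdx1 and Cdx2 are known to specify intestinal epithelium, and Sox2 is known for its part in foregut and stomach. Intestinal enterocytes carry a brush border of microvilli with peptidases, disaccharidases and transporters, and in the suckling period also take up milk proteins by endocytosis. Gastric glands hold mucous pit and neck cells, parietal cells that pump acid, and zymogenic cells that secrete pepsinogens and, in young mammals, the milk-clotting protease chymosin.

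Values are FPKM, fragments normalised to transcript length and library size, as deposited. Total FPKM was 349700 and 352550 in the intestine and 360655 and 357880.0 in the hindstomach, and 11031 and 10420 genes reached 1 FPKM in the intestine, against 11557 and 11736 in the hindstomach. Read numbers are unknown. Low values relative to intestine replicate 1 lay within 1% of steps of whole reads for 23.5% to 28.7% of low genes. After shuffling 3.67% to 4.41% did. From these steps, depth relative to intestine replicate 1 was 0.490 for intestine replicate 2, 0.938 for hindstomach replicate 1 and 0.431 for hindstomach replicate 2. A factor of 2 in these depths is uncertain, so their order is too. Pearson's r of log2(FPKM + 1), computed over the 11788 tested genes (genes are not independent of one another), was 0.982 between the intestine libraries, 0.978 between the hindstomach libraries and 0.822 to 0.872 between tissues.

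The tissue labels were checked against defining markers, each given as FPKM in replicates 1 and 2. All 7 intestinal markers were higher in both intestine libraries: Cdx2 stood at 133 and 135 in the intestine, against 24.4 and 16.6 in the hindstomach, the cadherin Cdh17 at 241 and 240.0 FPKM in the intestine against 41.7 and 26.4 in the hindstomach, and lactase, Lct, at 389.5 and 515 FPKM in the intestine against 49.3 and 88.1 in the hindstomach. All 7 gastric markers were lower there: Sox2 stood at 0.345 and 0.0244 in the intestine, against 41.2 and 36.8 in the hindstomach, and the gastric mucin Muc5ac at 0.0538 and 0.00311 FPKM in the intestine against 2.84 and 5.05 in the hindstomach. The general epithelial genes Epcam (559.7 and 564 in the intestine, 428 and 374 in the hindstomach) and Cdh1 (168 and 173 FPKM in the intestine against 213 and 237 in the hindstomach) were abundant in all 4 libraries and were not called. The epithelial keratins Krt8 (619 and 664 FPKM in the intestine against 1374 and 1601 in the hindstomach, adjusted p = 0.00460 by limma) and Krt18 (222 and 207 FPKM in the intestine against 722 and 742 in the hindstomach, adjusted p = 0.00150) were abundant too, but were called lower in the intestine. None of the intestinal markers was near 0 in the hindstomach, where the lowest single value was 8.99 FPKM for Cdx1. In bulk tissue, fewer cells of a type and less RNA per cell cannot be told apart.

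Of 11788 genes that reached 1 FPKM in 2 or more of the 4 libraries, 983 were called higher in the intestine (8.34%) and 1340 lower (11.4%), or 19.7% in either direction. A call required an adjusted p under 0.05 (limma on log2(FPKM + 1), Benjamini-Hochberg) and a fold change of at least 2, and all differences below are intestine minus hindstomach on that scale, which understates the change of low genes. Over every gene tested the log2 fold change had a median of -0.26, which median-of-ratios scaling moved to -0.026. The same scaling turned the balance of calls to 1288 higher and 988 lower, so that 56.6% of calls were higher against 42.3% as deposited. Quantile normalisation gave 1252 and 872 (58.9%). With the spread taken from all 8 libraries the counts were 396 and 404. That spread includes the forestomach pair, whose 2 libraries correlated at r = 0.72, against 0.956 for the colon pair. With the spread from 6 libraries, colon added and forestomach left out, the counts were 933 and 1249. Without regard to the test, both intestine libraries lay above both hindstomach libraries in 25.8% of genes and below them in 54.1%.

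**Figure D1:**
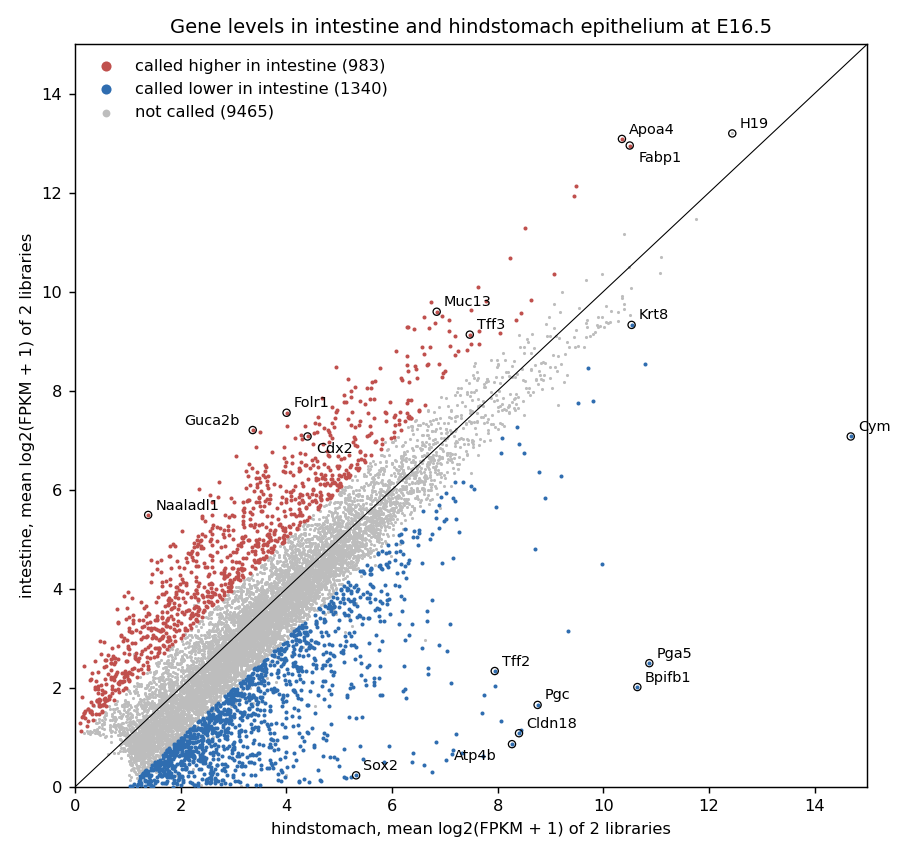
Mean log2(FPKM + 1) of the 2 libraries of each tissue for 11788 genes, hindstomach on the horizontal and intestine on the vertical axis, with genes called higher in red, called lower in blue and the line of equal level in black. Genes called lower spread down to the horizontal axis even at high hindstomach levels (Atp4b, Cldn18, Pgc), while genes called higher form a band above the diagonal.

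The genes with the largest rise in the intestine encode cell surface, secreted and intracellular proteins. Naaladl1, a peptidase of the brush border, stood at 41.5 and 46.5 FPKM in the intestine, against 1.26 and 2.02 in the hindstomach, a difference of 4.11 ± 0.18 (log2 fold change ± SE, adjusted p = 0.00128). Angiotensin-converting enzyme, Ace, was at 118 and 171 FPKM in the intestine and 6.73 and 15.4 in the hindstomach, and glutamyl aminopeptidase, Enpep, at 110.0 and 94.1 FPKM in the intestine against 7.45 and 7.05 in the hindstomach. These are among 12 genes named by a rule (called with the largest change, at least 10 FPKM in the higher tissue and no overlap between tissues). Diamine oxidase, Aoc1, which breaks down histamine, stood at 53.2 and 76.3 FPKM in the intestine against 4.42 and 3.80 in the hindstomach. The folate receptor Folr1 was at 179 and 195 FPKM in the intestine against 15.3 and 14.8 in the hindstomach. Other genes in this set were the glutathione peroxidase Gpx3 (3.53 ± 0.26), the carboxylesterase Ces2e (3.44 ± 0.18), the phosphate transporter Slc34a2 (3.42 ± 0.14), the endolysosomal channel Mcoln3 (3.34 ± 0.14) and amnionless, Amn (3.28 ± 0.10), a subunit of the intrinsic factor receptor. In GRCm38 coordinates Naaladl1 lies on chromosome 19 from 6105782 to 6115792 and Enpep on chromosome 3 from 129269175 to 129332720, and both are protein coding genes.

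Those with the largest fall include genes of gastric surface, zymogenic and parietal cells. Chymosin, Cym, the most abundant transcript of the hindstomach at 6.52% and 8.23% of summed FPKM, stood at 266 and 67.1 FPKM in the intestine, against 23524 and 29459 in the hindstomach (-7.61 ± 0.66, adjusted p = 0.00226). Bpifb1, a secreted protein of the BPI fold family, was at 10.2 and 0.453 in the intestine and 1219 and 2099.8 in the hindstomach (-8.63 ± 1.00), and the pepsinogen gene Pga5 at 7.89 and 2.58 FPKM in the intestine against 795 and 4409 in the hindstomach (-8.38 ± 0.91). In each case the lowest hindstomach library was above the highest intestine library, which the rule for naming these genes required. The proton pump subunit Atp4b stood at 2.18 and 0.0377 FPKM in the intestine against 218 and 435 in the hindstomach, progastricsin, Pgc, at 5.32 and 0.566 FPKM in the intestine against 349 and 533 in the hindstomach, and the tight junction gene Cldn18 at 2.70 and 0.210 FPKM in the intestine against 337 and 339 in the hindstomach. In all 12 of these genes intestine replicate 1 was higher than intestine replicate 2. The remaining members were Anxa10 (-7.29 ± 0.46), Dpcr1 (-7.10 ± 0.30), cathepsin E, Ctse (-6.73 ± 0.36), Gsdmc2 (-6.63 ± 0.39), Psca (-6.48 ± 0.43) and Mal (-6.48 ± 0.22). Cym lies on chromosome 3 from 107211293 to 107221732 and Cldn18 on chromosome 9 from 99689461 to 99717267, both protein coding. Pga5, Gsdmc2 and Ces2e have close relatives in the genome, between which reads may have been split or shared.

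**Figure D2:**
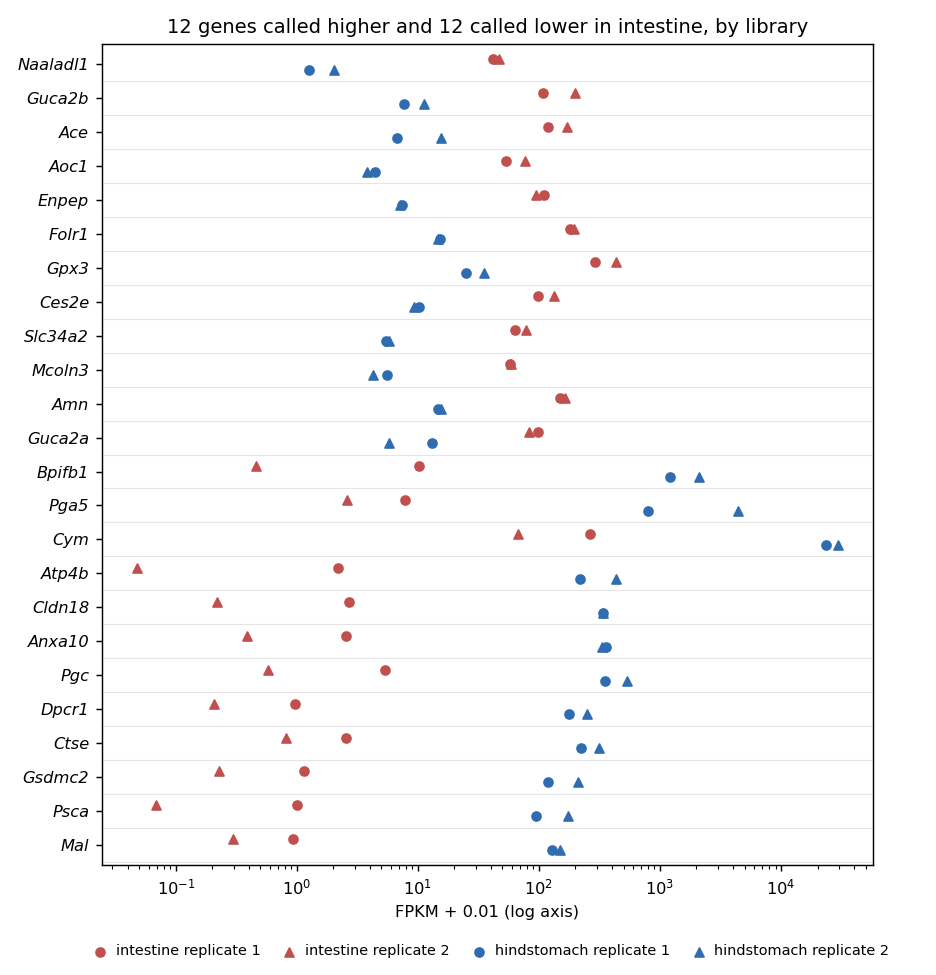
FPKM + 0.01 on a log axis in each library for 12 genes called higher and 12 called lower, those of the largest change, intestine in red above hindstomach in blue, circles for replicate 1 and triangles for replicate 2. Cym is at 266 and 67.1 FPKM in the intestine against 23524 and 29459 in the hindstomach, and for the 12 lower genes the intestine triangle lies left of the circle.

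Higher and lower calls were also described by how much transcript the lower tissue held. Among genes of at least 100 FPKM in the higher tissue, the 165 called higher in the intestine had a hindstomach level at a median 23.1% of the intestine level, the lowest at 6.16%, with 7 genes under 10% and 0 under 1%. The 65 called lower had an intestine level at a median 12.7% of the hindstomach level, the lowest at 0.201%, with 30 genes under 10% (46.2%) and 17 under 1%. Over calls at any level the medians lay closer, at 25.7% for the 983 higher and 21.9% for the 1340 lower. Under 10% were 52 of these higher calls (5.29%) and 326 of the lower (24.3%). A log2 change of at least 4 was reached by 1 gene called higher (Naaladl1) and by 55 called lower. At any level, 4 of the 983 higher calls had under 5% left in the hindstomach, chosen for description after their values were seen. They included Naaladl1, the neurotensin gene Nts (3.28 and 5.92 FPKM in the intestine against 0.0964 and 0.148 in the hindstomach) and Gucy2d (1.47 and 1.39 FPKM in the intestine against 0.0595 and 0.0661 in the hindstomach). No test of this difference between directions was made.

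**Figure D3:**
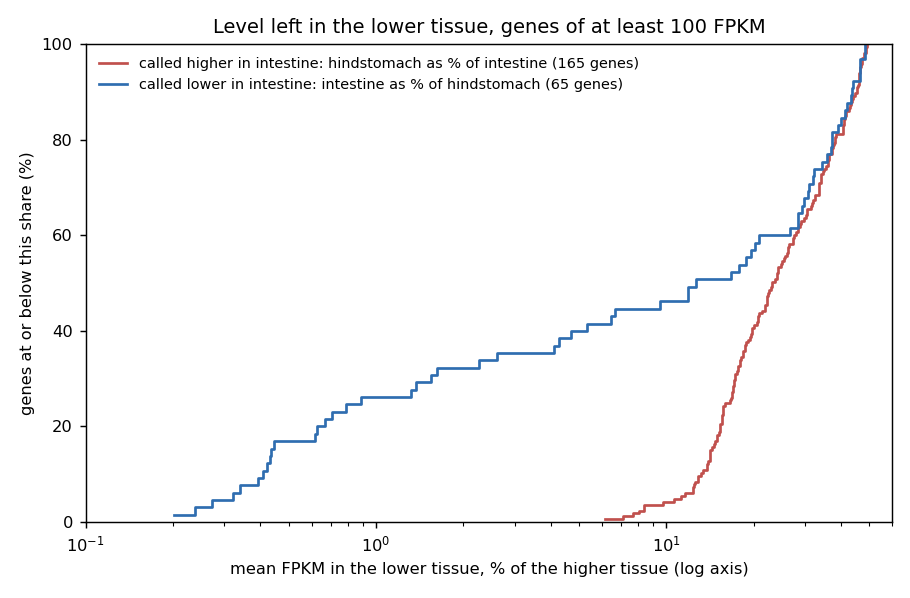
Cumulative percentage of called genes of at least 100 FPKM (vertical axis) by the level in the lower tissue as a percentage of the higher tissue (log horizontal axis), red for the 165 genes called higher in the intestine and blue for the 65 called lower. The red curve starts at 6.16% and the blue curve at 0.201%.

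The 2 libraries of a tissue were also compared with each other in the called genes. Of the 50 lower calls with the highest hindstomach level, 43 were higher in intestine replicate 1 than in intestine replicate 2, with a median log2 ratio of 0.48, and 13 were higher in hindstomach replicate 1 than in hindstomach replicate 2. Of the 50 higher calls with the highest intestine level, 5 were higher in intestine replicate 1 (median log2 ratio -0.26) and 23 in hindstomach replicate 1. The share of all genes tested that were higher in replicate 1 was not counted, so these counts have no background beside them. Whether stomach tissue in intestine replicate 1, or intestinal cells in the hindstomach libraries, contributed to these levels was not tested.

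Transcription factors of gut regions split along the tissues. Of 22 tested factors known from the stomach or foregut, 18 fell in the intestine and 0 rose, with a median log2 change of -2.11 against -0.26 over all genes tested. Colon levels of Klf4 (56.55 and 81.1 FPKM), Spdef (28.5 and 50.8) and Meis1 (2.07 and 5.87) overlapped those of the hindstomach, unlike the rest of these 18. Of 28 tested factors of intestinal epithelium, 17 rose and 2 fell, with a median of 1.58. With the spread taken from all 8 libraries, 9 gastric factors were lower, and 8 intestinal factors were higher and 0 lower. These lists, like all gene lists here, were chosen with earlier results of these data known, and their counts are a description. List and family members named beyond the rule for named genes were chosen after their values were seen.

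Among the gastric factors Sox2 changed by -5.09 ± 0.18 (adjusted p = 0.00128) and its relative Sox21, at 0.261 and 0.0220 FPKM in the intestine and 34.8 and 33.5 in the hindstomach, by -4.95 ± 0.15. Both were near 0 in the intestine. A group of forkhead genes fell as well: the pit cell factor Foxq1 (5.82 and 6.68 FPKM in the intestine, 106 and 129 in the hindstomach), and the endodermal pioneer factors Foxa1 (6.64 and 5.33 FPKM in the intestine against 95.2 and 92.6 in the hindstomach) and Foxa2 (1.35 and 0.705 FPKM in the intestine against 14.3 and 15.6 in the hindstomach). Foxa3 changed by -2.01 ± 0.11. The zymogenic cell factor Bhlha15, also called Mist1, changed by -2.68 ± 0.47, Esrrg, a nuclear receptor of parietal cells, changed by -2.64 ± 0.13, and the antral factor Nkx6-3 by -2.27 ± 0.15. Nkx6-2 (0.152 and 0.114 FPKM in the intestine against 4.65 and 6.01 in the hindstomach) fell at low levels, and so did the Iroquois genes Irx2 (0.0352 and 0.00509 FPKM in the intestine against 1.61 and 1.78 in the hindstomach), Irx3 (0.0823 and 0.0896 FPKM in the intestine against 1.76 and 1.55 in the hindstomach) and Irx5 (0.0584 and 0 FPKM in the intestine against 3.35 and 4.19 in the hindstomach). Gata4 (-0.29), Gata6 (0.47) and Pdx1 (-0.34) were not called, nor was Elf3 (-0.73).

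On the intestinal side Cdx1 rose by 2.77 ± 0.21 and Cdx2 by 2.67 ± 0.20 (adjusted p = 0.00181 and 0.00176). The enterocyte and liver factor Creb3l3 stood at 183 and 222 FPKM in the intestine, against 27.5 and 28.4 in the hindstomach, and the homeobox gene Isx, which controls vitamin A uptake, at 74.95 and 78.4 FPKM in the intestine against 14.8 and 8.93 in the hindstomach. Hnf4g was at 130.2 and 130.2 FPKM in the intestine against 35.6 and 22.2 in the hindstomach and its paralog Hnf4a at 166 and 165 FPKM in the intestine against 63.4 and 53.8 in the hindstomach, so that Hnf4g changed by 2.17 ± 0.23 and Hnf4a by 1.49 ± 0.12. Whether these 2 paralogs changed unequally was not tested. Prdm1, the repressor Blimp1 that marks fetal and suckling enterocytes, stood at 28.2 and 28.6 FPKM in the intestine against 5.75 and 4.42 in the hindstomach. The large Maf factor Maf (2.13 ± 0.19) rose, as did the bile acid receptor Nr1h4 (2.44 ± 0.12), the fatty acid receptor Ppara (2.22 ± 0.14), Osr2 (2.16 ± 0.14), Nr5a2 (1.78 ± 0.29), Nr1i3 and Vdr. Vdr, the vitamin D receptor (3.95 and 5.56 FPKM in the intestine against 1.58 and 1.54 in the hindstomach), was not called without intestine replicate 2, and Meis1, a gastric list member, was not called without intestine replicate 2 or without hindstomach replicate 2. Pparg (-2.27 ± 0.15) and Ppard (-1.31 ± 0.18), the other members of the Ppar family, fell. Gata5 (0.13) was not called.

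**Figure D4:**
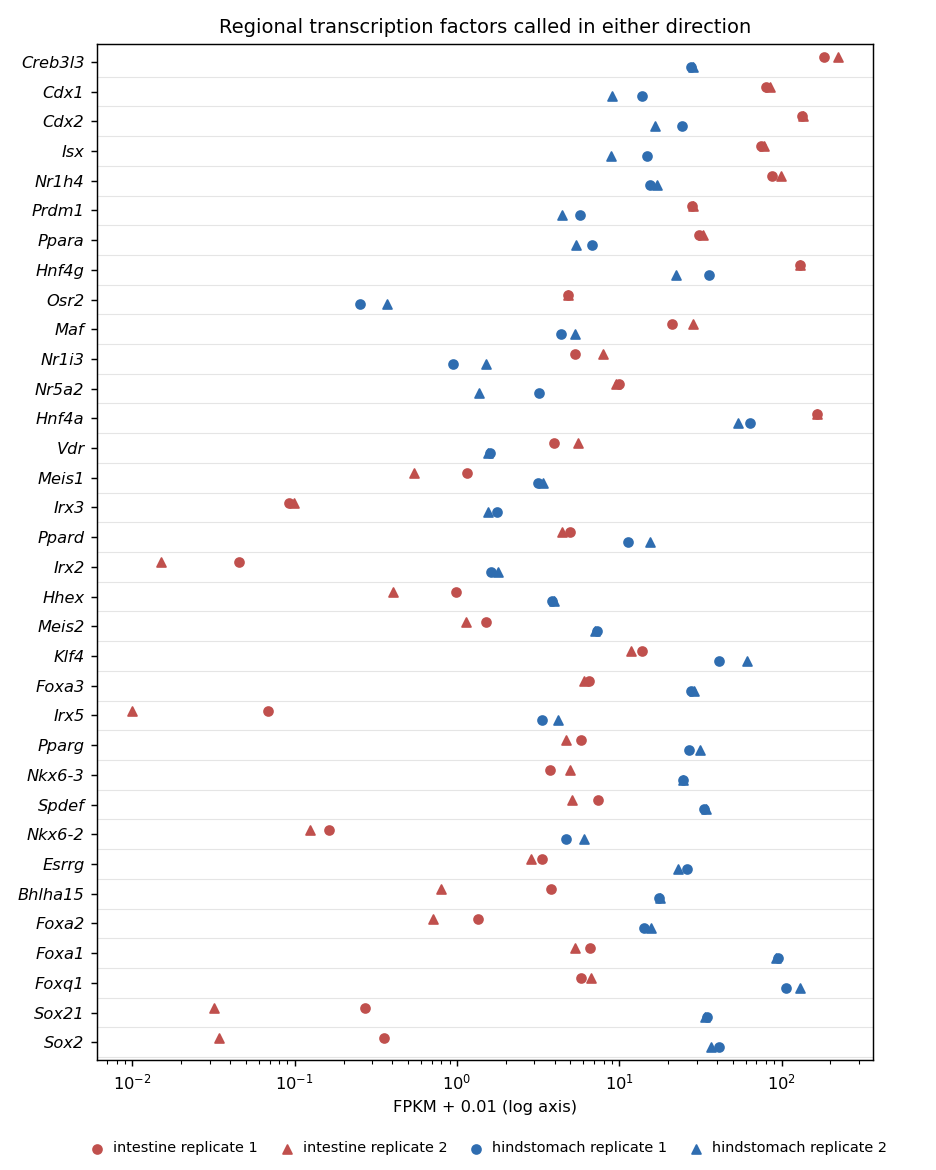
FPKM + 0.01 on a log axis in each library for regional transcription factors called in either direction, ordered from the largest rise to the largest fall, intestine in red above hindstomach in blue, circles for replicate 1 and triangles for replicate 2. Cdx2 is at 133 and 135 FPKM in the intestine against 24.4 and 16.6 in the hindstomach, and Sox2 at 0.345 and 0.0244 FPKM in the intestine against 41.2 and 36.8 in the hindstomach.

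Gastric surface mucous genes fell nearly throughout: of 27 tested, 24 fell and 0 rose, with a median of -4.26. Besides those above they included the gastrokines Gkn1 (0.853 and 0.0668 FPKM in the intestine, 37.4 and 84.4 in the hindstomach), Gkn2 (-5.94 ± 0.45) and Gkn3 (-4.26 ± 0.14), the membrane mucin Muc1 (-5.89 ± 0.50) and the junction protein Vsig1 (-5.72 ± 0.23). With the spread taken from all 8 libraries 7 of the 27 fell. The 3 members not called were Gcnt1, Krt7 and Capn9. Of 15 neck, chief cell and chymosin genes 8 fell and 3 rose (median -2.43), but 1 fell and 1 rose with the spread from all 8 libraries. Intrinsic factor, Gif, stood at 0.527 and 0 FPKM in the intestine and 86.6 and 134 in the hindstomach, and the neck cell mucin Muc6 at 0.0494 and 0.0838 FPKM in the intestine against 2.51 and 8.39 in the hindstomach. The 3 that rose were the lysosomal protease gene Ctsl (2.15 ± 0.18), Dmbt1, a scavenger receptor (1.32 ± 0.23), and gastric lipase, Lipf (2.02 and 1.68 FPKM in the intestine, 0.531 and 0.316 in the hindstomach), which was not called without intestine replicate 1 or without hindstomach replicate 2.

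Parietal cell genes numbered 21, of which 13 fell and 1 rose (median -1.46), but 1 fell and 0 rose with the spread from all 8 libraries. Both proton pump subunits fell: Atp4a stood at 1.21 and 0.280 FPKM in the intestine and 76.9 and 258 in the hindstomach, changing by -6.40 ± 0.63. Carbonic anhydrase 2, Car2, which supplies protons, was at 4.73 and 1.97 FPKM in the intestine against 188 and 319 in the hindstomach, and the potassium channel gene Kcnj15 at 0.293 and 0.0274 FPKM in the intestine against 30.2 and 36.1 in the hindstomach. The sodium-proton exchanger Slc9a4, at 0.163 and 0.0220 FPKM in the intestine against 20.99 and 28.2 in the hindstomach, neighbours its relative Slc9a2 (-2.79 ± 0.19) on chromosome 1, and both fell. The member that rose was the brain-type creatine kinase Ckb (2.51 ± 0.15), which is not specific to parietal cells.

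Genes of enterocyte digestion rose together. Of 21 brush border peptidase and related genes 15 rose and 2 fell (median 2.14), of 14 disaccharidase, phosphatase and sugar metabolism genes 12 rose and 1 fell (2.37), and of 26 genes of microvillus structure 18 rose and 1 fell (1.63). With the spread taken from all 8 libraries 10 peptidase genes rose and 1 fell, 7 disaccharidase genes rose and 0 fell, and 8 microvillus genes rose and 0 fell. The meprin subunits Mep1a and Mep1b changed by 3.05 ± 0.12 and 2.91 ± 0.23, and dipeptidyl peptidase 4, Dpp4, by 1.83 ± 0.13. Lactase changed by 2.74 ± 0.31, the maltase-glucoamylase gene Mgam (57.1 and 57.0 FPKM in the intestine, 6.49 and 4.74 in the hindstomach) by 3.15 ± 0.16, and the alkaline sphingomyelinase Enpp7 by 3.06 ± 0.43. Sucrase-isomaltase, Sis, known to rise at weaning, did not reach 1 FPKM in 2 libraries and was not tested. Intestinal alkaline phosphatase, Alpi, stood at 406 and 552 FPKM in the intestine against 83.8 and 104 in the hindstomach and rose, whereas the tissue-nonspecific gene Alpl, at 0.152 and 0.0373 FPKM in the intestine against 2.12 and 1.53 in the hindstomach, fell. Members of the intermicrovillar adhesion complex rose: Cdhr2 (2.64 ± 0.21), Cdhr5 (2.67 ± 0.28), Ush1c (2.39 ± 0.12), Myo7b (2.78 ± 0.17) and Anks4b (2.19 ± 0.14). Villin, Vil1, stood at 319.9 and 374 FPKM in the intestine against 83.7 and 89.3 in the hindstomach and rose, while its relative Vill fell (0.853 and 0.235 FPKM in the intestine against 24.4 and 34.7 in the hindstomach). The other members that fell were Npnt (-1.72 ± 0.43), not called without hindstomach replicate 1 or without hindstomach replicate 2, and the carboxypeptidase Cpm (-1.19 ± 0.14).

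Lipid absorption genes were among the most abundant transcripts of the intestine. Of 33 tested, 26 rose and 1 fell (median 2.11), and 6 rose and 0 fell with the spread from all 8 libraries. The summed level of all 39 listed genes in the table was 26591 and 38367 FPKM in the intestine, against 5146 and 5863 in the hindstomach. The apolipoprotein Apoa4 stood at 6997 and 10754 FPKM in the intestine and 1105 and 1544 in the hindstomach. The cytosolic fatty acid binding proteins Fabp1 (6782 and 9222 FPKM in the intestine against 1486 and 1410.1 in the hindstomach) and Fabp2 (3502 and 5809 FPKM in the intestine against 651 and 775 in the hindstomach) followed, with no overlap between tissues. Both intestine libraries lay above both hindstomach libraries in 25.8% of all genes tested. The transfer protein Mttp, which loads lipid on to apolipoprotein B, changed by 2.99 ± 0.11, Apob itself by 2.64 ± 0.20, the cholesterol transporter Npc1l1 by 2.74 ± 0.32 and the retinol binding protein Rbp2 by 2.77 ± 0.23. Without intestine replicate 1, 2 of the list fell, and without any other library 0 fell.

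The promoters of Fabp1 and Fabp2, among the most abundant genes of the intestine, and of Cym, the most abundant of the hindstomach, are shown with short sequence motifs in capitals. Each runs 5′ to 3′ on the gene's strand from 250 bases before to 50 bases after the RefSeq start (GRCm38.p6). The Fabp1 promoter, chr6:71199629-71199928 (plus strand), holds 3 matches to the CDX motif TTTATNG or its reverse complement, starting 227, 133 and 89 bases before the start, and a TATA box, TATAAA, 30 bases before it. The Fabp2 promoter, chr3:122894822-122895121 (plus strand), holds an HNF4 motif, CAAAGTNCA on the reverse strand, 137 bases before the start and a CDX match 65 bases before it. The Cym promoter, chr3:107221683-107221982 (minus strand), holds a GATA motif, GATAAG on the reverse strand, 142 bases before the start, and a CDX match at 30 bases that overlaps a TATA box at 29 bases.
Fabp1: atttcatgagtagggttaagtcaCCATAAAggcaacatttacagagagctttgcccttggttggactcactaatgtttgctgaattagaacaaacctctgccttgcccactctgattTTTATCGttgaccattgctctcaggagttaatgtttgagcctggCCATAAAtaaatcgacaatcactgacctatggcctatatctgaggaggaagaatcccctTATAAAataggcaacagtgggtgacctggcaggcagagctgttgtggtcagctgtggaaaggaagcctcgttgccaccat
Fabp2: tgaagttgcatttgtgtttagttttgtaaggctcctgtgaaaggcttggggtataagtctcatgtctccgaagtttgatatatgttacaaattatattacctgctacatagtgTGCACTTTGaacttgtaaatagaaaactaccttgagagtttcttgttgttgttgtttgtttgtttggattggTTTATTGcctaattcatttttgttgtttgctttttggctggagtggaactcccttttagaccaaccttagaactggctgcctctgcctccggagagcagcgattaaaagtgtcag
Cym: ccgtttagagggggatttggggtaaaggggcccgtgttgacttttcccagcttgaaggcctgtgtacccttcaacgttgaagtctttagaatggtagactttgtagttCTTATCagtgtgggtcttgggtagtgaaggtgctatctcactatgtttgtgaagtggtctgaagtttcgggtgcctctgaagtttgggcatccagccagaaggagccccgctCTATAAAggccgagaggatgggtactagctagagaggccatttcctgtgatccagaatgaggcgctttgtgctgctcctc

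The promoters shown are examples, and Fabp1 and Fabp2 lie outside the rule for named genes. Among genes of the largest rise, the promoters of Guca2b, Ace, Enpep, Mcoln3 and Guca2a held no CDX or HNF4 match. Those of Aoc1, Gpx3, Ces2e, Slc34a2 and Amn held 0 matches to any motif searched. Over all promoters with a listed sequence, the HNF4 motif, searched on both strands, was present in 3.83% of 757 promoters of genes called higher in the intestine, 0.714% of 981 of genes called lower and 1.16% of 9191 of genes tested. For CDX the shares in the same sets were 9.91%, 8.05% and 6.91%, for GATA 8.98%, 6.63% and 5.14%, and for the TATA box, which can overlap the CDX motif, 11%, 11.3% and 7.24%. FOXA, TGTTTAC, was in 3.04%, 3.36% and 2.45%, and SOX2, CCTTTGT, in 5.81%, 5.40% and 4.15%. Base composition moved with the sets: median GC content was 58%, 61% and 61%, and the median number of CpG was 12, 18 and 21. The part of composition in the motif shares was not tested, and a match is a description of these letters, not of binding.

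Most listed transporters rose. Of 37 tested genes for uptake of nutrients, metals and bile acids, 30 rose and 2 fell (median 2.28), and with the spread from all 8 libraries 14 rose and 1 fell. Of 229 solute carriers in all, 74 rose (32.3%, against 8.34% of all genes) and 29 fell (12.7%, against 11.4%), with a median of 0.15. Quantile normalisation gave 83 and 17 for these, and the spread from all 8 libraries 31 and 4. The sodium-glucose transporter Slc5a1 stood at 126 and 159 FPKM in the intestine and 21.9 and 22.2 in the hindstomach, the peptide transporter Slc15a1 at 26.8 and 34.0 FPKM in the intestine against 4.14 and 5.79 in the hindstomach, and the neutral amino acid transporter Slc6a19 at 50.5 and 61.2 FPKM in the intestine against 6.39 and 7.12 in the hindstomach. The bile acid exporter subunits Slc51a and Slc51b changed by 2.72 ± 0.15 and 2.90 ± 0.27. The sodium-proton exchanger Slc9a3 changed by 2.96 ± 0.35 and the myo-inositol transporter Slc5a11 by 3.17 ± 0.18. Against the rest, the calcium channel Trpv6 stood at 0.464 and 0.560 in the intestine and 14.0 and 15.5 in the hindstomach, and the duodenal ferric reductase Cybrd1 at 12.4 and 12.5 FPKM in the intestine against 48.0 and 60.5 in the hindstomach.

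Of 26 genes of the endocytic apparatus and other fetal enterocyte products, 20 rose and 2 fell (median 1.98). With the spread taken from all 8 libraries 13 rose and 1 fell, and with median-of-ratios scaling 0 fell. The multiligand receptor genes Cubn and Lrp2 changed by 2.44 ± 0.31 and 1.97 ± 0.17, their adaptor Dab2 by 2.00 ± 0.15, the neonatal Fc receptor Fcgrt by 2.46 ± 0.25 and Mamdc4, or endotubin, of apical endosomes, by 2.88 ± 0.41. Cps1 and Otc, which carry out mitochondrial steps of the urea cycle, both rose. Cps1 stood at 819.5 and 954 FPKM in the intestine against 139 and 80.9 in the hindstomach, and Otc at 52.1 and 53.0 FPKM in the intestine against 8.86 and 5.49 in the hindstomach. Of 14 urea cycle and amino acid genes 9 rose, Nags (2.54 ± 0.15) and Oat (2.44 ± 0.17) among them, and 2 fell, while 6 rose and 2 fell with the spread from all 8 libraries. Glutamine synthetase, Glul, changed by -3.81 ± 0.27 (11.8 and 6.50 FPKM in the intestine, 127 and 147 in the hindstomach), and the aminotransferase Bcat2 changed by -2.99 ± 0.25.

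The guanylin system, in which guanylin (Guca2a) and uroguanylin (Guca2b) act on guanylate cyclase C (Gucy2c) to drive fluid secretion, was higher in all 4 of its listed genes. Guca2b stood at 108 and 199 FPKM in the intestine and 7.66 and 11.2 in the hindstomach, Guca2a at 98.9 and 82.9 FPKM in the intestine against 13.1 and 5.74 in the hindstomach, and Gucy2c at 156 and 157 FPKM in the intestine against 22.6 and 16.6 in the hindstomach. The downstream kinase Prkg2 changed by 2.19 ± 0.13. All 4 were also called with the spread taken from all 8 libraries.

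Goblet and Paneth cell genes went both ways, 9 of 20 higher and 6 lower (median 0.64), or 3 higher and 3 lower with the spread from all 8 libraries. Secreted products rose: Tff3 (1.66 ± 0.26), Clca1 (1.69 ± 0.36), Zg16 (1.52 ± 0.25), Itln1 (1.34 ± 0.34) and the lysozyme gene Lyz1 (1.93 ± 0.23), and so did the secretory fate factor Atoh1 (1.33 ± 0.27) and the membrane mucin Muc13, at 709 and 839 FPKM in the intestine and 121 and 107 in the hindstomach. Retnlb rose but was not called without intestine replicate 2. Genes known from mucous cells of both stomach and intestine fell: Spdef (-2.28 ± 0.18), Creb3l1 (-2.65 ± 0.27), Creb3l4 (-2.51 ± 0.12), the mucous cell stress sensor Ern2 (-3.55 ± 0.27), the disulfide isomerase Agr2 (-1.75 ± 0.14) and the mucin glycosyltransferase Galnt12 (-2.11 ± 0.12). Muc2, the goblet mucin, changed by 0.82 and was not called.

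The trefoil peptides, which protect mucosae, divided by tissue. Tff3 stood at 573 and 546 FPKM in the intestine and 227 and 137 in the hindstomach. Tff2, the peptide of gastric neck cells, was at 3.81 and 4.32 FPKM in the intestine against 202 and 298 in the hindstomach (-5.61 ± 0.21), and Tff1, that of pit cells, at 0.0519 and 0 FPKM in the intestine against 2.43 and 3.69 in the hindstomach (-1.97 ± 0.21). None of the 3 overlapped between tissues, which also held for 25.8% (intestine above) and 54.1% (intestine below) of all genes tested. With the spread taken from all 8 libraries Tff3 was called and 0 of the others. Mucins divided likewise, with Muc13 higher and Muc1, Muc4, Muc5ac and Muc6 lower among 7 tested, or 1 higher and 1 lower with the spread from all 8 libraries.

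Of 27 tested endocrine cell genes 5 rose (18.5%, against 8.34% of all genes) and 3 fell (11.1%, against 11.4%), with a median of 0.23. With quantile normalisation 9 rose, and with the spread from all 8 libraries 3 rose. Hormones known from the small intestine rose, namely Gip (45.4 and 63.0 FPKM in the intestine, 8.49 and 8.55 in the hindstomach), Sct (104 and 101 FPKM in the intestine against 29.3 and 24.4 in the hindstomach), Cck (51.0 and 54.6 FPKM in the intestine against 17.3 and 12.6 in the hindstomach) and neurotensin, together with the granin Chgb (1.49 ± 0.20). Gastrin, Gast, the antral hormone, stood at 0.754 and 0.908 FPKM in the intestine against 10.7 and 15.3 in the hindstomach, and the islet factor Isl1 at 0.668 and 0.401 FPKM in the intestine against 7.07 and 7.65 in the hindstomach, both lower. Ddc also fell, but was not called without hindstomach replicate 1. Ghrelin, Ghrl (-0.33), somatostatin, Sst (-0.21), and the endocrine fate factor Neurog3 (-0.12) were not called.

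**Figure D5:**
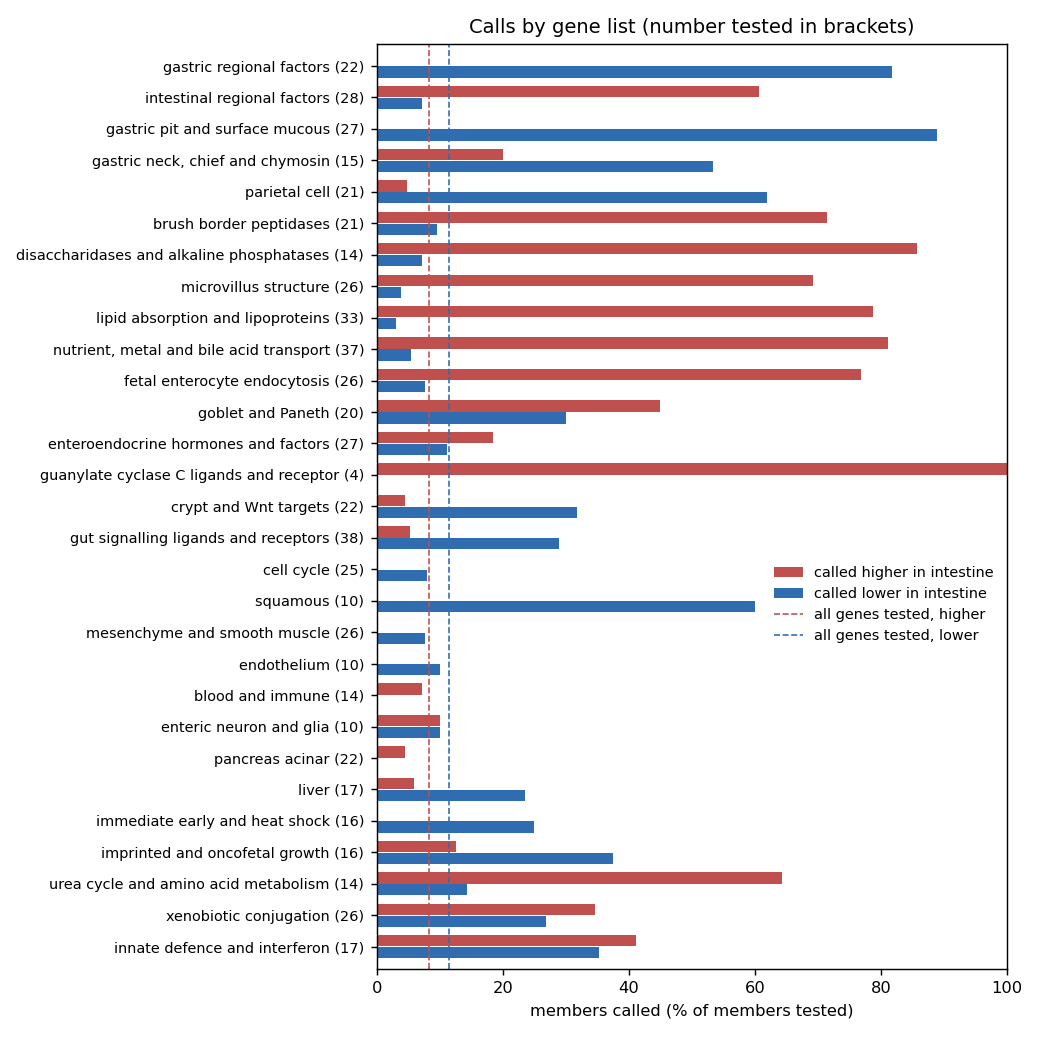
Percentage of the tested members of each gene list called higher (red) and lower (blue) in the intestine, with the number tested in brackets and dashed lines for all genes tested, 8.34% higher and 11.4% lower. Enterocyte lists stand far above the red line and gastric lists above the blue line, while cell cycle (0 and 2 of 25) and endothelium (0 and 1 of 10) lie near or below both.

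Stem cell and signalling genes were more often lower than higher, as were all genes tested (11.4% lower and 8.34% higher). In the crypt and Wnt target list 31.8% were lower and 4.55% higher, and in the signalling list 28.9% and 5.26%. Of 22 crypt and Wnt target genes 7 fell and 1 rose (median -0.56, or -0.30 relative to the median of all genes), 4 fell with median-of-ratios scaling, and 2 fell and 0 rose with the spread from all 8 libraries. The progenitor factor Sox9 stood at 7.03 and 7.40 FPKM in the intestine and 28.1 and 39.5 in the hindstomach, Cd44 at 1.68 and 1.67 FPKM in the intestine against 8.45 and 7.48 in the hindstomach, and the ephrin receptor Ephb3 at 1.42 and 1.05 FPKM in the intestine against 7.82 and 11.1 in the hindstomach. The groups did not overlap for these, but both intestine libraries lay below both hindstomach libraries in 54.1% of all genes tested. Hopx was the member that rose (1.77 ± 0.42), and Lgr5, Axin2 and Ascl2 were not called. Of 38 signalling genes 11 fell and 2 rose (median -0.67, or -0.42 relative to all genes), and with the spread from all 8 libraries 3 fell and 1 rose. Sonic hedgehog, Shh, stood at 1.81 and 0.862 FPKM in the intestine against 19.9 and 23.1 in the hindstomach and Indian hedgehog, Ihh, at 34.7 and 33.5 FPKM in the intestine against 81.9 and 99.8 in the hindstomach. Wnt4 changed by -2.82 ± 0.22, the BMP-induced inhibitors Id1 and Id3 by -2.42 ± 0.23 and -1.95 ± 0.24, and Bmp2 by -1.80 ± 0.15. The Notch ligand Dll1 (1.77 ± 0.14) and Bmp7 (1.68 ± 0.17) rose. The Cre driver of these embryos is at the Shh locus in both tissues.

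Cell cycle genes numbered 25, of which Ccnd2 (-1.40 ± 0.098) and Ccnd1 (-1.27 ± 0.24) fell and 0 rose, and 0 were called with the spread from all 8 libraries. The share lower was 8.0%, against 11.4% of all genes tested, and the share higher 0%, against 8.34%, so both were below those of all genes. Ccnd1 was not called without intestine replicate 2, hindstomach replicate 1 or hindstomach replicate 2. Mki67 (-0.73 ± 0.097) and Top2a (-0.53 ± 0.15) passed the p threshold (adjusted p = 0.00595 and 0.0462) but changed by less than 2-fold. The median of -0.46 was -0.21 relative to all genes. Among 16 imprinted and oncofetal genes 2 rose and 6 fell, but 2 fell without intestine replicate 2 or without hindstomach replicate 1, 3 without hindstomach replicate 2, 2 with median-of-ratios scaling, and 0 fell or rose with the spread from all 8 libraries. The 2 that rose and 6 that fell were 12.5% and 37.5% of this list, against 8.34% and 11.4% of all genes tested. Cdkn1c rose by 1.45 ± 0.13 and Meg3 changed by -1.99 ± 0.22, whereas H19 (9134 and 9609 FPKM in the intestine, 6529 and 4738 in the hindstomach) and Igf2 were not called.

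Several gene families held called members, to be set against 8.34% of all genes tested called higher and 11.4% lower. Among 14 claudins, which set the permeability of tight junctions, Cldn2 (2.36 ± 0.18), Cldn15 (1.62 ± 0.21), Cldn1 and Cldn19 rose, and Cldn18 and Cldn6 (-4.02 ± 0.48) fell. These were 28.6% of the claudins higher and 14.3% lower, the latter near the share of all genes. With median-of-ratios scaling 7 claudins rose, and with the spread from all 8 libraries 1 rose. Of 12 keratins 8 fell and 0 rose, including Krt8 (-1.21 ± 0.14) and Krt18 (-1.77 ± 0.11), and 5 fell with median-of-ratios scaling and 0 with the spread from all 8 libraries. Of 9 UDP glucuronosyltransferases, which conjugate lipophilic compounds, 6 rose and 1 fell (3 and 0 with the spread from all 8 libraries), while of 20 glutathione transferases 0 rose and 7 fell, led by Gsta4 (30.1 and 15.6 FPKM in the intestine against 988 and 1026 in the hindstomach) and Gstm1 (-2.93 ± 0.26). With median-of-ratios scaling 1 glutathione transferase rose and 4 fell, and with the spread from all 8 libraries 0 rose and 3 fell. The genes of the Ugt1a cluster share exons, so that their reads cannot be assigned to one of them with certainty. Of 14 S100 proteins 7 fell and 1 rose, or 1 and 0 with the spread from all 8 libraries.

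Innate defence genes were divided, 7 of 17 higher and 6 lower. The polymeric immunoglobulin receptor Pigr stood at 17.1 and 48.2 FPKM in the intestine and 2.25 and 3.04 in the hindstomach, the interferon-induced gene Ifit1 changed by 2.86 ± 0.16, and the chemokine Ccl25, which attracts lymphocytes to the small intestine, by 2.54 ± 0.17. Lower were the secreted inhibitor Wfdc2 (5.18 and 1.96 FPKM in the intestine against 137 and 137 in the hindstomach) and the hydrogen peroxide generating pair Duox2 (-2.26 ± 0.50) and Duoxa2 (-2.48 ± 0.40). Il33 fell too, but was not called without intestine replicate 2 or without hindstomach replicate 2. With median-of-ratios scaling 9 of these genes rose and 3 fell, and with the spread from all 8 libraries 2 rose and 1 fell.

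Markers of other cell types were present at levels that varied between libraries. The summed level of all 29 mesenchyme and smooth muscle genes in the table was 634 and 154 FPKM in the intestine, against 410 and 641 in the hindstomach. Of the 26 tested, Msln and Barx1, genes of mesothelium and stomach mesenchyme, fell and 0 rose, but 16 fell without intestine replicate 1. Collagen Col3a1 was at 49.2 and 8.53 FPKM in the intestine against 31.0 and 43.7 in the hindstomach. Endothelial genes, 12 in the table and 10 tested, summed to 39.4 and 7.75 FPKM in the intestine, against 22.1 and 34.4 in the hindstomach, with 1 lower. Without intestine replicate 1, 4 of them were lower, and without any other library 0. Of 14 blood and immune genes Csf1r rose (14.7 and 16.2 FPKM in the intestine against 2.60 and 2.90 in the hindstomach), 0 fell, and 6 fell without intestine replicate 1. The defining leukocyte gene Ptprc was not tested for low values. Among 10 neuron and glia genes Ret rose (1.30 ± 0.18) and 1 fell, with 3 lower without intestine replicate 1. Called lower were 7.69% of mesenchyme and 10.0% of endothelial genes, called higher 7.14% of blood genes, and 10.0% of neuron genes in each direction. Over all genes tested, 8.34% were called higher and 11.4% lower, so these shares were near or below those of all genes. With the spread taken from all 8 libraries, 1 mesenchyme gene was lower and 0 of the endothelial, blood and neuron genes were called. The part of these cells in the calls was not tested.

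Pancreatic acinar transcripts were high in replicate 1 of both tissues. The summed level of the 25 listed genes in the table was 3900.0 and 717 FPKM in the intestine, against 6088 and 1781 in the hindstomach, with chymotrypsinogen Ctrb1 at 1807 and 298 FPKM in the intestine against 2852 and 748 in the hindstomach. Of the 22 tested, 1 rose (Zg16, which goblet cells also express) and 0 fell, and 8 fell without intestine replicate 1. Over all genes tested 8.34% were called higher and 11.4% lower, against 4.55% and 0% of the pancreatic genes. Of 17 liver genes 1 rose (5.88%) and 4 fell (23.5%), or 2 rose and 1 fell with median-of-ratios scaling. Without intestine replicate 1, 9 fell, and 2 fell without intestine replicate 2 or without hindstomach replicate 1. Without hindstomach replicate 1, 4 rose, and without hindstomach replicate 2, 0. Albumin, Alb, stood at 47.9 and 0.257 FPKM in the intestine against 168 and 57.2 in the hindstomach and was not called (adjusted p = 0.151). Squamous epithelial genes, 25 in the table and 10 tested, summed to 24.8 and 29.2 FPKM in the intestine, against 418 and 164 in the hindstomach, and 6 fell, or 0 with the spread from all 8 libraries. Krt13 stood at 0.222 and 0.321 FPKM in the intestine against 91.8 and 5.33 in the hindstomach and was not called without intestine replicate 1 or without intestine replicate 2. The basal squamous genes Trp63, Krt5 and Krt14 were too low to be tested. Of 16 immediate early and heat shock genes, which can respond to tissue handling, Fos (2.24 and 2.06 FPKM in the intestine against 14.4 and 27.9 in the hindstomach), Btg2, Egr1 and Jun fell, and 2 fell without hindstomach replicate 2, with median-of-ratios scaling or with the spread from all 8 libraries.

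Neighbouring genes were compared as well, in the order of the GRCm38 annotation. Of 1957 neighbour positions beside a higher call 17.0% held a gene called higher, against 8.34% of all genes, and of 2657 beside a lower call 19.9% held one called lower, against 11.4%. A gene between calls on both sides counts once for each. No test was made of these shares. The longest run was on chromosome 15, where Psca, Them6, Lypd2, Lynx1, Ly6d, Ly6k and Ly6e, 7 consecutive tested genes mostly of the Ly6 family, were lower. On chromosome 11 the keratins Krt23, Krt13, Krt15 and Krt19 were lower, and on chromosome 15 the gasdermins Gsdmc2, Gsdmc3 and Gsdmc4. Runs of higher genes included Acot1, Acot4, Acot3 and Acot6 on chromosome 12, acyl-CoA thioesterases, and Naip2, Naip5, Naip6 and Naip1 on chromosome 13, sensors of bacterial proteins. These are tandem copies, between which reads may be shared.

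Levels in the other tissues were read only as values. In the colon, replicates 1 and 2, Cdx2 stood at 112 and 91.1 FPKM, Fabp1 at 4773 and 1502, Guca2a at 222 and 223, Sox2 at 0.390 and 1.14 and Cym at 86.0 and 2.17. Colon replicate 1 was close to intestine replicate 1 (r = 0.973), closer than to colon replicate 2 (0.956). In the forestomach Cdx2 stood at 0.0273 and 0 FPKM, Sox2 at 11.6 and 125 and Pgc at 97969.9 and 2.54, and the library labelled forestomach replicate 1 stands apart from its partner, with Pgc at 18.0% of its summed FPKM. Neither tissue entered the fit.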

How the data were processed

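The deposited values are FPKM made by the authors, 1 table of 23393 gene symbols with 0 duplicated; its other 4 columns, of samples not described here, were left aside. Per the submitters' processing notes, STAR 2.4.2a and GRCm38 (mm10) were used; for the FPKM program, its annotation and strandedness nothing is given in the sources used here. Reads of overlapping or antisense genes and of close copies may therefore be mixed. FPKM divides by the library total, so a few abundant genes lower all others. Of the symbols, 23257 matched GENCODE M21 (GRCm38), the source of coordinates.

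Genes that reached 1 FPKM in 2 or more of the 4 libraries were tested on log2(FPKM + 1) in limma 3.58.1 (R 4.3.3; moderated variances with a mean trend, 2 residual degrees of freedom), with Benjamini-Hochberg adjustment over all 11788. The fit was tested on simulated data. The members and lists were chosen with earlier results of these data known. The rule for named genes took 12 called genes in each direction by size of change, at least 10 FPKM in the higher tissue and no overlap between tissues, without predicted, RIKEN, pseudogene or mitochondrial models, plus up to 4 called members per list and direction and called regional factors. Other genes were named after their values were seen. Other scalings, pseudocounts, filters, fold rules and variance models were tried, as were the spread from 6 or 8 libraries, a replicate block and fits without 1 library. Promoter sequences are from RefSeq (GRCm38.p6), the first listed start of each gene, and 9191 of the tested genes had one. Vil1, which is not a transcription factor, was taken out of the list of intestinal factors after its values were seen. Some genes that the rule allows, and a motif that was searched, are not reported here.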

Additional observations from a re-analysis of the deposited data

How the results depend on the processing

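Counts below are calls toward higher and toward lower in the intestine, 983 and 1340 as reported, with a median log2 fold change of -0.26. Leaving out 1 library at a time gave 909 to 1050 higher, 1109 to 1759 lower and a median of -0.31 to -0.19; the lone sample of a tissue is then assumed to vary like the other tissue's pair. Of these calls, 817 higher and 945 lower were kept with each library left out in turn. With a pseudocount of 5 the counts were 616 and 555, with at least 5 FPKM in 2 libraries 837 and 866, with the 4-fold rule 299 and 385, with no fold rule 1983 and 3481, and with the spread from all 8 libraries 396 and 404. Quantile normalisation gave 1252 and 872 with a median of -0.034, and median-of-ratios scaling 1288 and 988 with a median of -0.026. With no filter the median was -0.092. The replicate block gave 992 and 1406; the correlation of replicate 1 minus replicate 2 differences between tissues was 0.29 over genes, but with only 2 pairs the numbers were not taken as pairing the samples. Of 169 named genes, 150 kept their call in every fit without 1 library, and 0 reversed direction under any alternative. With the spread from all 8 libraries 83 of the 169 named genes kept their call, with the 4-fold rule 116 and with a pseudocount of 5, 129. With the spread from 6 libraries, forestomach left out, 159 of the named genes kept it. With at least 5 FPKM in 2 libraries, 25 of them were not tested. Of 2124 counts of list and family members under 18 alternatives, 344 moved by more than 1.5 times. Read depth is unknown, so no counting interval was derived, and 2 libraries per tissue limit the precision.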
